A study of Mus musculus with 23 samples.

Results

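Igsf23, Ppp1r1c, Dct and Sprr1a are 4 of the 43154 features measured in mouse hearts, and each lay close to 0 or at a low level in wild-type hearts and well above it in hearts with an active calcineurin transgene. They were chosen from these same data as genes with an FPKM (fragments per kilobase of transcript, scaled to the library's total of mapped fragments) near 1 or less in wild-type hearts and above 15 in transgenic hearts given vehicle and collected at day 45. The difference between genotypes is therefore a description here, and no test of it is given. The data were 23 RNA sequencing libraries of hearts from C57BL/6 mice, either wild type (WT) or CnATg, which carry a calcineurin transgene driven by the MHC promoter of heart muscle cells. Vehicle or JIB-04, a small molecule that blocks Jumonji-type histone demethylases, was given at 50 mg/kg on 3 occasions a week. At day 45 there were 3 libraries each of WT with vehicle, WT with JIB-04, CnATg with vehicle and CnATg with JIB-04. At day 77 there were 3 libraries of WT with JIB-04, 4 of CnATg with vehicle and 4 of CnATg with JIB-04. Treatment of CnATg mice began at week 4 for the younger age and at week 5 for the older, so age and start of treatment cannot be told apart. For WT mice it began at week 4 with vehicle, and no start week is given for WT with JIB-04. The series' own outline mentions vehicle as the sole treatment of WT mice, whereas single WT samples are labelled JIB-04, and the sample labels were followed. No WT vehicle group of day 77 was analysed here, and the labels do not state that each library came from a different mouse, so p-values measure the spread between these libraries, which may be technical.

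Calcineurin is a phosphatase switched on by calcium and calmodulin. It removes phosphates from NFAT transcription factors, which then enter the nucleus, where they act with partners such as GATA4 and MEF2, and its sustained activity in heart muscle cells enlarges the heart. The 4 genes are known from unlike settings. Igsf23 encodes a membrane protein of the immunoglobulin superfamily that has been studied in osteoclasts. Ppp1r1c encodes a small inhibitor of protein phosphatase 1 (PP1), related to inhibitor-1 and DARPP-32, the proteins of Ppp1r1a and Ppp1r1b. Dct encodes dopachrome tautomerase, an enzyme of melanin synthesis and a standard marker of pigment cells. Sprr1a encodes a small proline-rich protein of the cornified envelope of skin, known also as a gene induced by gp130 cytokines in stressed heart muscle and by injury in peripheral neurons.

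On GRCm38, counted from 1, Igsf23 lies at chr7:19937305-19950743 on the minus strand, Ppp1r1c at chr2:79707780-79818496 on the plus strand, Dct at chr14:118012792-118052246 on the minus strand and Sprr1a at chr3:92483952-92485895 on the minus strand. The longest coding transcripts in GENCODE M21 have 5 exons for Igsf23, 5 for Ppp1r1c, 8 for Dct and 2 for Sprr1a. Igsf23 overlaps the gene model Gm44651 on its own strand, and Dct overlaps 4930435M08Rik on the opposite strand. Neither model is a feature of the files, and since the library kit does not keep strand, reads of Dct and of the model opposite it cannot be told apart. Ppp1r1c and Sprr1a overlap no other gene of that annotation.

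The 250 bases before each start site, from RefSeq on GRCm38.p6, are shown because the genes share a pattern of expression while coming from separate chromosomes. All 4 genes matched by symbol, and of the 2 windows given for Igsf23 the one that adjoins the end of its locus was used. The sequences come from chr7:19950744-19950993 (minus strand), chr2:79707530-79707779 (plus), chr14:118052247-118052496 (minus) and chr3:92485882-92486131 (minus), and run 5′ to 3′ in the direction of transcription. Capitals mark matches on either strand to GGAAA (the NFAT core), TGANTCA (AP-1), CATGTG (the M-box of pigment genes), GATA preceded by A or T, or TATAAA.
Igsf23: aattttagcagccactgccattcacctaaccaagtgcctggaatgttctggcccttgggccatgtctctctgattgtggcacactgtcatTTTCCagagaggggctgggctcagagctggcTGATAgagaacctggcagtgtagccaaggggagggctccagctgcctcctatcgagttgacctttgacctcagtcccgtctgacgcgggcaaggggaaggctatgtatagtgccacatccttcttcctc
Ppp1r1c: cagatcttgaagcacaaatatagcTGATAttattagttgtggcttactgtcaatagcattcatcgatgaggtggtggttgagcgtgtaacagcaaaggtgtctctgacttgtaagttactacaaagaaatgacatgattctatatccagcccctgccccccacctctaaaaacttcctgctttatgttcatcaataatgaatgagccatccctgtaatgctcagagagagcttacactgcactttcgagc
Dct: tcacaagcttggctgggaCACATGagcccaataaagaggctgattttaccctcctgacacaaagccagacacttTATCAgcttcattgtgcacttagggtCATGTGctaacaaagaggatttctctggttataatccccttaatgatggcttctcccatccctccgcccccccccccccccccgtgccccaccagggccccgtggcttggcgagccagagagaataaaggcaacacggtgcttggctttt
Sprr1a: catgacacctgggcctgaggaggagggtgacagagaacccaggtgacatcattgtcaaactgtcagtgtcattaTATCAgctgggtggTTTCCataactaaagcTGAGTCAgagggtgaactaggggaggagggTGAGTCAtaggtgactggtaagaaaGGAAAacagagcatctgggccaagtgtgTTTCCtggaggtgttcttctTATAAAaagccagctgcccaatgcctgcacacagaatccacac

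The windows had different sets of matches. Each window was searched over 300 bases, from 250 before to 50 after the start, and compared with 32851 RefSeq windows of that length. The NFAT core matched at 1 site for Igsf23 and at 3 sites for Sprr1a, and at none for Ppp1r1c and Dct. It is a short word, present in 61.3% of all windows. Dct had 2 M-box matches, which begin at positions -232 and -150 (the base before the start being -1), and 14.2% of all windows held at least 1. The other 3 genes had none. The M-box is the word bound by MITF in pigment genes and is a form of the E-box (CANNTG), so that both matches also count among the 2 E-boxes of Dct. Sprr1a had 2 AP-1 matches, which begin at positions -146 and -116, and a TATAAA match at -43. AP-1 matches occurred in 7.81% of all windows and TATAAA matches in 13.6%, and the other 3 genes had neither. Ppp1r1c had 2 GATA matches, of which 1 begins at position 22, after the start and outside the printed stretch, and the other 3 genes had 1 each, where 43.8% of all windows held at least 1. E-boxes numbered 6 for Sprr1a, 2 for Igsf23 and 0 for Ppp1r1c, against a share of 72.3% of windows with at least 1. The MEF2 motif, present in 3.19% of windows, and the CArG box, present in 1.63%, matched in none of the 4. A match describes these letters in this window and is not a measured binding site.

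The libraries were first compared as a whole. Between 12384 and 12782 features reached an FPKM of 1. Sex was read from the levels of Xist and Ddx3y, and every group held both sexes in unequal shares. With JIB-04 at day 77, WT had 1 female and 2 male libraries and CnATg 3 female and 1 male. Ppp3ca, the catalytic calcineurin subunit whose reads include the transgene, stood at 23.6 to 29.0 FPKM in the 9 WT libraries and 1415 to 1987 FPKM in the 14 CnATg libraries, so that every library matched its genotype label. Rcan1, the calcineurin inhibitor that NFAT itself induces, stood at 24.1 to 37.4 FPKM in WT and 66.8 to 114 FPKM in CnATg. Read counts are unknown. A relative depth read from the smallest steps of low values ran from 0.594 to 0.959 of the average in WT and from 0.968 to 1.33 in CnATg, and mitochondrial transcripts made up 20.8 to 27.1% of the summed FPKM in WT and 15.5 to 17.4% in CnATg. Both measures separate the genotypes, and their part in the genotype differences was not tested. In bulk heart RNA, fewer cells of a type and less RNA per cell cannot be told apart.

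Igsf23 reached the highest level of the 4 genes. Its FPKM was 0.350, 0.534 and 0.699 in WT hearts with vehicle at day 45, 0.882, 0.512 and 0.854 in WT with JIB-04 at day 45, and 0.586, 1.80 and 0.793 in WT with JIB-04 at day 77. In CnATg it was 72.8, 57.8 and 70.4 with vehicle at day 45 and 61.0, 75.4 and 63.9 with JIB-04 at day 45. At day 77 it was 86.4, 68.7, 75.4 and 61.4 with vehicle and 65.3, 65.7, 69.7 and 53.6 with JIB-04. All WT libraries were low, the highest at 1.80 FPKM, and all CnATg libraries were high with no overlap. The mean over the 14 CnATg libraries was 67.7 FPKM against 0.778 FPKM over the 9 WT libraries, a ratio of 87.0. The gene was above 0 in every WT library, so it was low rather than undetected there.

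Although Sprr1a was listed at 0 in more WT libraries, Ppp1r1c had the lowest WT mean of the 4 genes, at 0.0259 FPKM. The WT values were 0.0175, 0.000693 and 0.0253 FPKM with vehicle, 0, 0.115 and 0 FPKM with JIB-04 at day 45, and 0.000693, 0.000693 and 0.0733 FPKM with JIB-04 at day 77, where 0.000693 is the smallest step of the deposited scale. In CnATg at day 45 it stood at 34, 41.2 and 38.6 FPKM with vehicle and 26.5, 38.1 and 28.9 FPKM with JIB-04. At day 77 the values were 25.1, 36.6, 37.3 and 37.1 FPKM with vehicle and 31.7, 39.3, 36.0 and 26.5 FPKM with JIB-04. The genotypes did not overlap, and 2 of the 9 WT libraries listed the gene at 0. The CnATg libraries spread over a 1.64-fold range, with low values in 3 of the 4 groups.

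Dct was detected in every heart. Its FPKM was 1.74, 1.26 and 0.778 in WT with vehicle, 1.10, 0.695 and 1.14 in WT with JIB-04 at day 45 and 1.70, 1.90 and 1.92 in WT with JIB-04 at day 77. The CnATg values were 30.1, 25.9 and 37.5 with vehicle and 36.3, 29.9 and 33.0 with JIB-04 at day 45. At day 77 they were 35.7, 23.4, 33.1 and 26.9 with vehicle and 25.3, 33.5, 25.6 and 32.9 with JIB-04. The lowest CnATg library was 12.2 times the highest WT library, and the means of 30.7 and 1.36 FPKM differed 22.6-fold. Among WT hearts, the day-77 libraries with JIB-04 lay at the top of the range and overlapped the vehicle group in 1 library.

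Sprr1a was the least steady. It was listed at 0 in 6 of the 9 WT libraries, 2 in each group, and the remaining values were 0.102 FPKM with vehicle, 0.165 FPKM with JIB-04 at day 45 and 0.322 FPKM with JIB-04 at day 77. In CnATg at day 45 the values were 29.5, 6.70 and 14.8 FPKM with vehicle and 6.91, 3.82 and 15.7 FPKM with JIB-04. At day 77 they were 26.2, 8.46, 4.95 and 10.2 FPKM with vehicle and 7.59, 8.25, 11.7 and 5.84 FPKM with JIB-04. Both vehicle groups and the day-45 JIB-04 group held 1 library well above the rest of the group. No CnATg library overlapped WT, but only 3 of the 14 exceeded 15 FPKM, whereas all 14 did so for each of the other 3 genes. Its mean of 17 ± 11.5 FPKM (SD, n = 3) in CnATg with vehicle at day 45 passed that level through 1 library of 3.

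**Figure D1:**
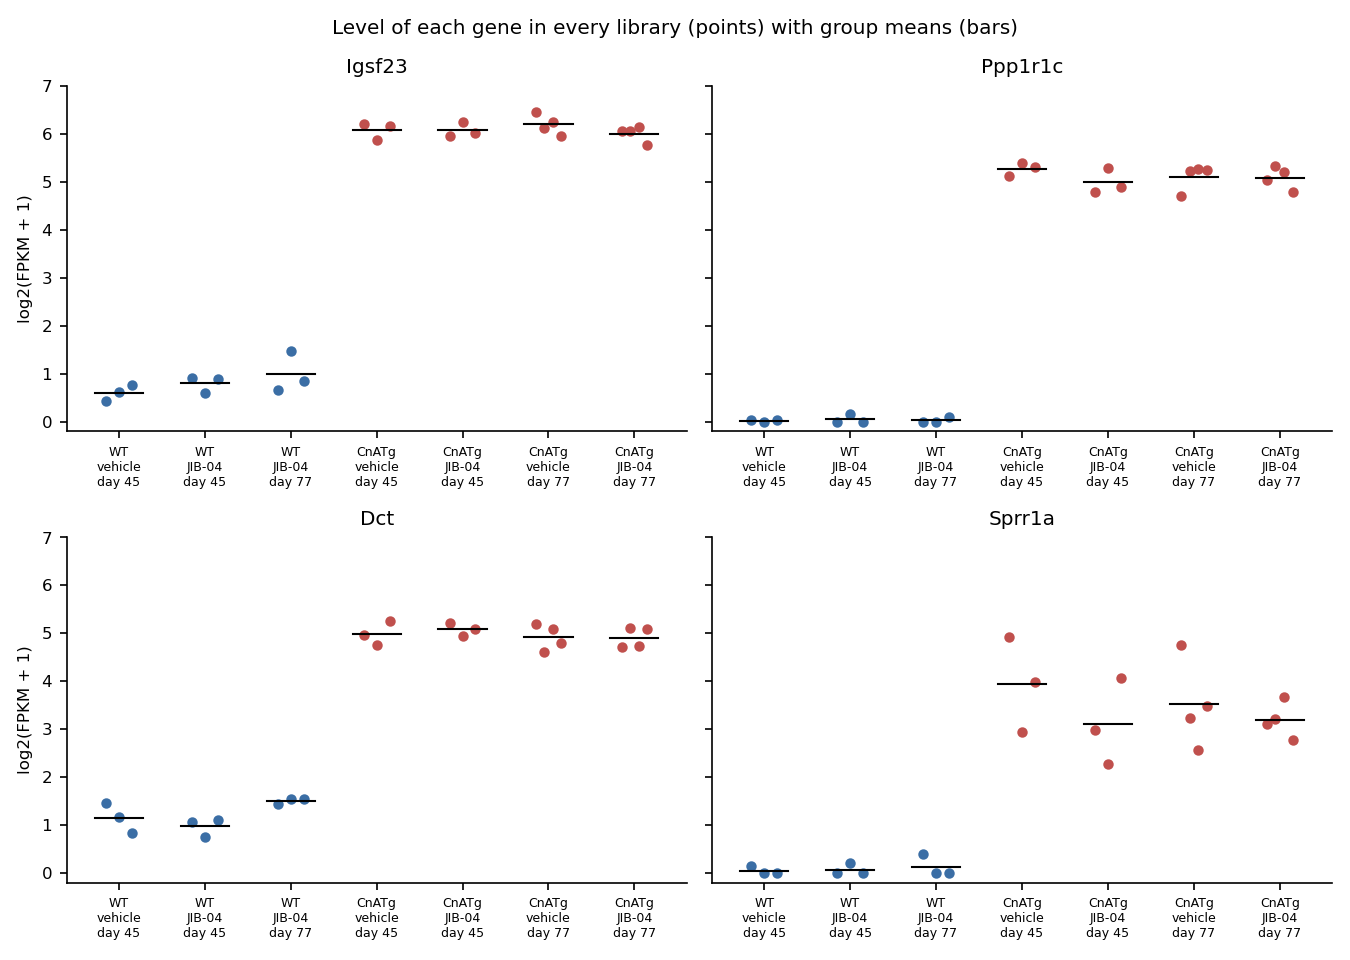
Level of Igsf23, Ppp1r1c, Dct and Sprr1a in each of the 23 libraries, as log2(FPKM + 1) on the vertical axis, by group on the horizontal axis (blue WT, red CnATg, bars for group means of 3 or 4 libraries). The 4 CnATg groups of each gene lie above all WT libraries and overlap one another, and Sprr1a has the widest scatter within groups.

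The order of the groups was read from means. For Igsf23 the CnATg means were 67.0 ± 8.03 (SD, n = 3) with vehicle and 66.8 ± 7.62 FPKM (n = 3) with JIB-04 at day 45, and 73.0 ± 10.6 (n = 4) with vehicle and 63.6 ± 6.95 FPKM (n = 4) with JIB-04 at day 77. For Ppp1r1c they were, in the same order, 37.9 ± 3.66, 31.2 ± 6.11, 34 ± 5.96 and 33.4 ± 5.52 FPKM. Ranked by mean, adjacent groups of either gene differed by less than the larger SD of the pair, while the highest and lowest Ppp1r1c groups differed by more. For Dct the means were 31.2 ± 5.84, 33.1 ± 3.19, 29.8 ± 5.60 and 29.3 ± 4.51 FPKM, and for Sprr1a 17 ± 11.5, 8.81 ± 6.17, 12.5 ± 9.41 and 8.34 ± 2.45 FPKM. These also overlapped from group to group. FPKM is scaled to transcript length, so levels of the genes can be set side by side: over the 14 CnATg libraries the medians were 67.2 FPKM for Igsf23, 36.3 for Ppp1r1c, 31.5 for Dct and 8.36 for Sprr1a. The ranges of Ppp1r1c and Dct overlapped, all Igsf23 values lay above both, and the highest Sprr1a library (29.5 FPKM) lay within them.

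On the scale of log2(FPKM + 1), which understates the change of a gene near 0, the difference of CnATg from WT with vehicle at day 45 was 5.48 for Igsf23 (95% interval 5.20 to 5.75), 5.26 for Ppp1r1c (4.99 to 5.52), 3.84 for Dct (3.47 to 4.21) and 3.91 for Sprr1a (2.87 to 4.94). Within JIB-04 at day 45 it was 5.28, 4.94, 4.11 and 3.03 in the same order of genes, and within JIB-04 at day 77 it was 5.01, 5.05, 3.41 and 3.05. The WT libraries that chose the genes enter each of these values, which are descriptions. Over all 13289 features tested at day 45 with vehicle, 5213 (39.2%) passed the threshold of an adjusted p under 0.05 by limma, 3100 of them higher (23.3%) and 2113 lower (15.9%) in CnATg. Rescaling changed that split to 2471 higher and 2722 lower with median-ratio scaling, and to 2344 and 2835 with quantile normalization. The median difference of all features tested was 0.07 before rescaling.

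The effect of JIB-04 on the 4 genes in CnATg hearts could be tested at day 77, since the rule used none of these 8 libraries. The spread in the test was shared with the WT libraries of day 77, which the rule did use. Ppp1r1c, Dct and Sprr1a varied less in those than in CnATg, so their intervals may be too narrow. No difference passed the threshold. By limma with Benjamini-Hochberg adjustment over all features, JIB-04 minus vehicle was -0.19 log2 for Igsf23 (SE 0.16, 95% interval -0.55 to 0.17, adjusted p = 0.80). It was -0.02 for Ppp1r1c (SE 0.14, -0.33 to 0.28, adjusted p = 0.98). For Dct it was -0.01 (SE 0.13, -0.31 to 0.28, adjusted p = 0.99), and for Sprr1a -0.33 (SE 0.37, -1.15 to 0.49, adjusted p = 0.845). As ratios of FPKM + 1, the intervals ran from 0.681 to 1.13 for Igsf23, 0.796 to 1.22 for Ppp1r1c and 0.809 to 1.21 for Dct. They therefore leave room for modest shifts and not for a return of these 3 genes to WT levels. For Sprr1a the interval of 0.452 to 1.40 is wide enough to include a large fall, and without the first vehicle library (26.2 FPKM) the difference turned to 0.09. Across all features 0 of 13212 (0%) passed by limma, while 984 had an unadjusted p under 0.05, and with no filter on low values 3 features passed. The typical 95% interval of a feature reached 0.21 to either side, narrower than that of each of the 4 genes.

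At day 45 the same contrast shares its vehicle libraries with the choice of the genes and is given without a test. Its intervals rest on a spread shared with the WT libraries of day 45. Ppp1r1c and Sprr1a lay near 0 there and varied less than in CnATg. Their intervals may therefore be too narrow, also where they leave out 0. Igsf23 differed by 0.00 (95% interval -0.28 to 0.27) and Dct by 0.09 (-0.28 to 0.47). Ppp1r1c was lower with JIB-04 by -0.29 (-0.55 to -0.02), and its 3 JIB-04 libraries overlapped the vehicle libraries in 1. The value ran from -0.18 without the first JIB-04 library to -0.44 without the second, and the interval included 0 in 4 of the 6 cases of leaving out 1 library. Sprr1a differed by -0.85 (-1.88 to 0.19), with overlapping groups. This moved to -0.36 without the first vehicle library or -0.43 without the second JIB-04 library, and to -1.35 (-2.30 to -0.41) without the second vehicle library or -1.33 (-2.30 to -0.35) without the third JIB-04 library. In WT hearts at day 45 the levels under JIB-04 differed from vehicle by 0.19 for Igsf23 (-0.08 to 0.47), -0.18 for Dct (-0.55 to 0.19), 0.03 for Ppp1r1c and 0.03 for Sprr1a.

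Age within CnATg hearts given JIB-04 was likewise open to a test. The spread came from all 23 libraries, among them the WT and day-45 vehicle libraries that the rule used. For Ppp1r1c and Sprr1a, near 0 in WT, the intervals may again be too narrow. Sex differed along with age there, with 1 female and 2 male libraries at day 45 and 3 female and 1 male at day 77. Day 77 minus day 45 was -0.07 log2 for Igsf23 (95% interval -0.41 to 0.26, adjusted p = 0.94), 0.10 for Ppp1r1c (-0.19 to 0.39, adjusted p = 0.90), -0.18 for Dct (-0.51 to 0.16, adjusted p = 0.82) and 0.08 for Sprr1a (-0.86 to 1.03, adjusted p = 0.98). None passed, where 5 of 13710 features (0.0365%) did. With vehicle, where the day-45 libraries chose the genes, the corresponding values were 0.12, -0.17, -0.07 and -0.44, and each interval included 0. Leaving out 1 library moved Sprr1a from -0.94 (without the second day-45 library) to 0.05 (without the first), Ppp1r1c from -0.24 to -0.03, Dct from -0.19 to 0.07 and Igsf23 from 0.02 to 0.20. The transgenic level of each gene was thus seen at both ages, and the age differences under JIB-04 did not exceed the spread of the libraries.

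**Figure D2:**
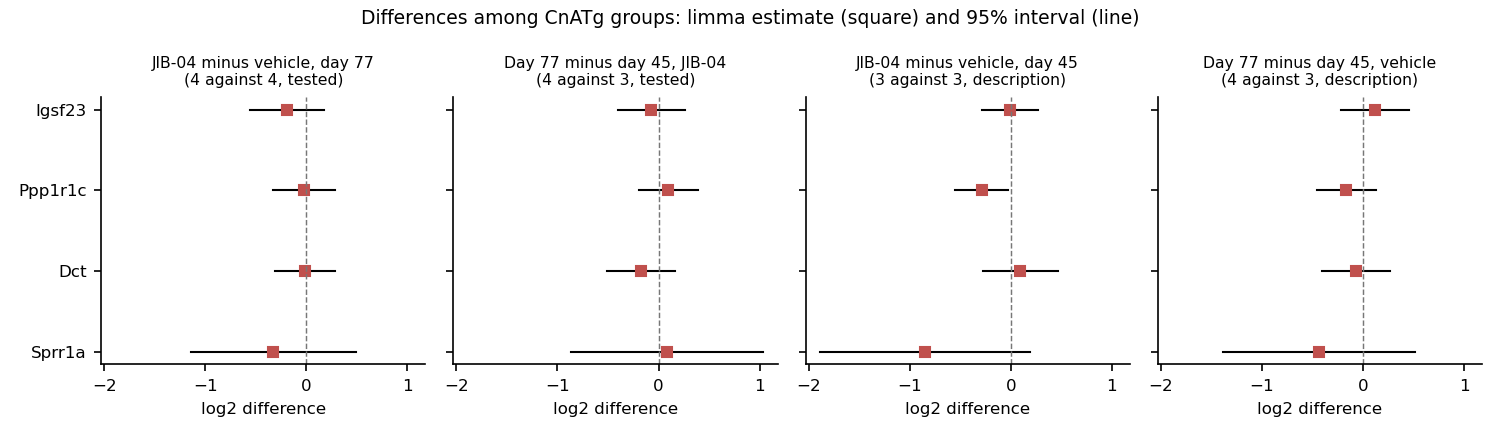
Differences among the CnATg groups for the 4 genes, in log2(FPKM + 1) on the horizontal axis (squares, limma estimates; lines, 95% intervals), for JIB-04 minus vehicle and day 77 minus day 45. Of the 8 tested values in the left-hand 2 panels none passed the threshold; the lines of Sprr1a are the longest, from -1.15 to 0.49 for JIB-04 at day 77.

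The 4 genes varied more between libraries of a group than most genes at their level. The SD within CnATg groups, on the log2(FPKM + 1) scale, was 0.18 for Igsf23, 0.24 for Ppp1r1c, 0.23 for Dct and 0.81 for Sprr1a. Among 5806 features with a mean of 8 to 80 FPKM in CnATg the median SD was 0.10, and 84.5%, 92.8%, 91.9% and 99.4% of them, in the order of the genes above, had a smaller SD. Sprr1a spanned a 7.73-fold range over the CnATg libraries, while the other 3 spanned 1.6-fold to 1.64-fold. The day-45 vehicle libraries, which the rule used, are among these, and Sprr1a met the rule through its highest one.

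Deviations from the group means were compared between genes over the 14 CnATg libraries. These include the day-45 vehicle libraries, whose level the rule used. For Sprr1a that level rested on 1 library at 29.5 FPKM, so its deviations there are not independent of the choice of the genes. Of 14 relations, 6 between the genes and 8 with Ppp3ca or Rcan1, none passed a permutation test after Benjamini-Hochberg adjustment. The strongest was that of Ppp1r1c with Sprr1a, with Pearson's r = -0.55 (permutation p = 0.075, adjusted p = 0.78, n = 14), Spearman's rho = -0.45 (permutation p = 0.14, adjusted p = 0.80) and r = -0.58 without the 2 libraries farthest from the median. Leaving out 1 library gave r from -0.74 to -0.31. The first vehicle library at each age, the highest of its group in Sprr1a, lay low for Ppp1r1c (deviations of -0.15 and -0.41). With JIB-04 the third library at each age was highest in Sprr1a, and its Ppp1r1c deviation was -0.09 at day 45 and 0.12 at day 77. The relation did not pass. Igsf23 and Sprr1a had r = 0.41 (permutation p = 0.23, adjusted p = 0.80), with rho = 0.46 (permutation p = 0.15, adjusted p = 0.80), and r fell to 0.04 without the 2 farthest libraries, so that it rests on those. Ppp3ca, which reports the transgene, had r = 0.47 with Dct (permutation p = 0.12, adjusted p = 0.78; rho = 0.36, permutation p = 0.25, adjusted p = 0.80; r = 0.35 without the 2 farthest; 0.26 to 0.68 leaving out 1 library). The other 11 relations had r from -0.44 to 0.25 (adjusted permutation p from 0.78 to 0.97) and rho from -0.34 to 0.36 (adjusted permutation p from 0.80 to 0.93).

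**Figure D3:**
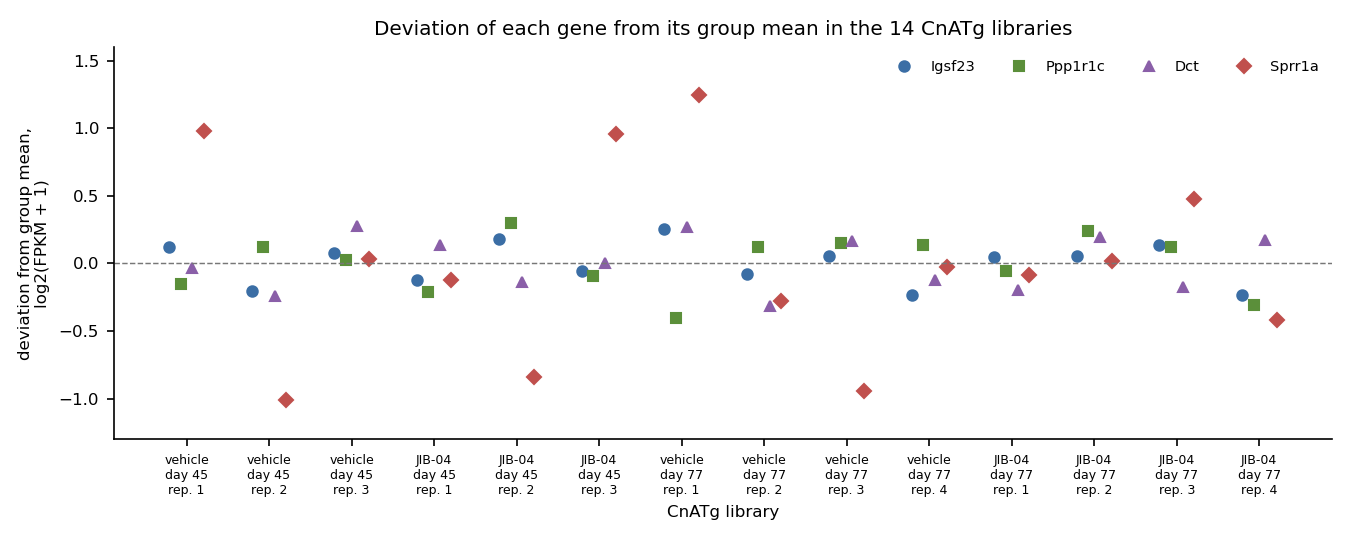
Deviation of each gene from its group mean, in log2(FPKM + 1) on the vertical axis, in each of the 14 CnATg libraries on the horizontal axis. Igsf23, Ppp1r1c and Dct stay between -0.41 and 0.30, whereas Sprr1a runs from -1.01 to 1.25.

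The neighbourhood of each locus did not share the size of the change, though most neighbours that could be tested were higher in CnATg. Within 100 kb of Igsf23 the files list 10 features, and 8 of them were under 1 FPKM in every library, Ceacam16, Ceacam19 and Ceacam20 included, which encode cell adhesion proteins related to carcinoembryonic antigen. The 1 neighbour that could be tested, Pvr, a nectin-like adhesion receptor, rose from 14.2 ± 0.795 to 17.6 ± 1.88 FPKM (SD, n = 3 each) between WT and CnATg with vehicle at day 45, a difference of 0.29 log2 (limma, adjusted p = 0.024). That call was lost on leaving out mitochondrial and hemoglobin genes (adjusted p up to 0.090 over 16 alternatives) and without any of 3 libraries, the third WT, the first CnATg or the third CnATg. Sprr1a has 12 neighbours, of which 11 were under 1 FPKM everywhere. Among these Sprr1b, Sprr3 and Sprr4, its closest relatives in the epidermal gene complex, were listed at 0 in all 23 libraries. The remaining one, Gm9774, differed by 0.33 log2 (limma, adjusted p = 0.0072).

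Ppp1r1c and Dct lie among expressed genes. Pde1a, a calcium-dependent phosphodiesterase gene 16.0 kb from Ppp1r1c, went from 3.75 to 5.47 FPKM (0.45 log2, limma adjusted p = 0.022), and Ssfa2 from 7.24 to 8.50 FPKM (0.20 log2, adjusted p = 0.043). The Ssfa2 call was lost under 11 of 16 alternatives, among them both rescalings and leaving out any WT or the second or the third CnATg vehicle library, and the Pde1a call under 5 of 16, of which 3 left out the second WT, the first CnATg or the second CnATg vehicle library. Of 5 neighbours of Dct, Tgds (0.42 log2, adjusted p = 0.0082) and Gpr180 (0.37 log2, adjusted p = 3.0e-04) rose, Gpc6 differed by 0.27 log2 without passing (adjusted p = 0.14), and 2 were under 1 FPKM throughout. In all, 6 of the 7 neighbours tested were called higher, against the 23.3% of all features called higher, and all 7 differences with vehicle at day 45 were below 0.5 log2, far from the 3.84 to 5.48 of the 4 genes.

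**Figure D4:**
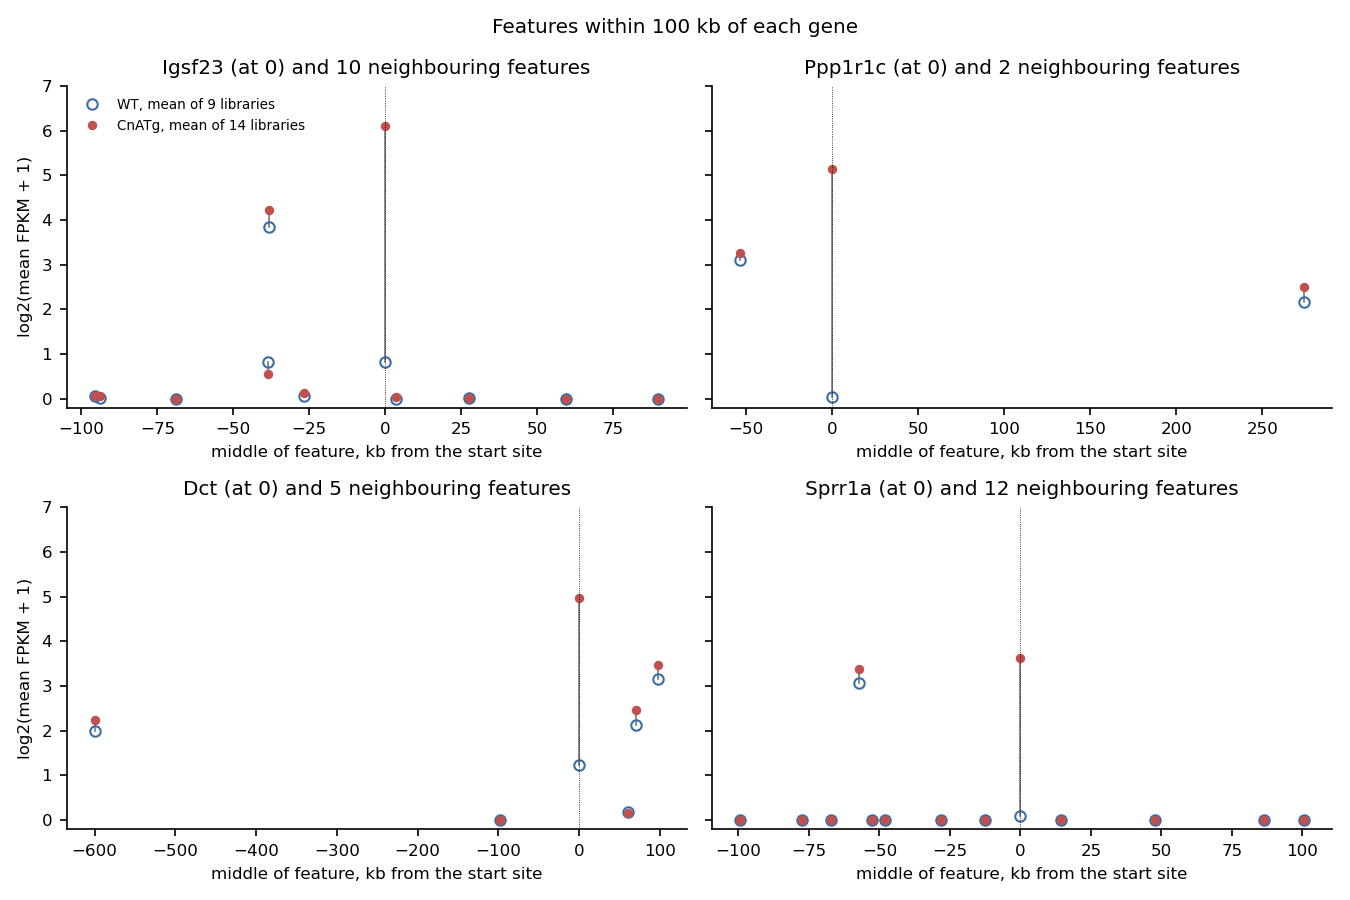
Mean level of each of the 4 genes, at 0 on the horizontal axis, and of the features within 100 kb of it, as log2(mean FPKM + 1), for 9 WT libraries (open) and 14 CnATg libraries (filled); the horizontal axis gives the middle of a feature in kb from the gene's start, so long neighbours plot farther out. The tall gap between open and filled points belongs to the 4 genes, and 8 of 10 neighbours of Igsf23 and 11 of 12 of Sprr1a lie near 0.

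Dct is a marker of pigment cells, so the other markers of that type were examined. Of 12 melanocyte markers 11 are in the files, and 10 of those were under 1 FPKM in every library. Tyr, which catalyses the first step of melanin synthesis, reached at most 0.0154 FPKM in any library, and Tyrp1, the enzyme that acts after dopachrome tautomerase, at most 0.0231 FPKM. Pmel, the fibril protein of melanosomes, reached 0.178 FPKM. Mitf, the factor that drives melanocyte genes and is also made in heart muscle, averaged 14.8 FPKM in WT and 13.5 FPKM in CnATg (difference with vehicle at day 45 -0.10 log2, limma adjusted p = 0.56). The markers other than Mitf summed to 1.07 to 1.59 FPKM in WT and 0.602 to 1.35 FPKM in CnATg, and with Mitf to 13.0 to 18.2 and 12.9 to 16.8 FPKM. The sums without Mitf were thus not higher in the CnATg libraries, in which Dct stood at 23.4 to 37.5 FPKM.

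A list of 17 genes held those of pigment synthesis and melanosomes and also the tautomerase genes Mif and Ddt. Of these 17 genes, 10 could be tested at day 45 with vehicle. Gpnmb, a membrane protein of melanosomes that macrophages also make, rose from 0.201 ± 0.0506 to 2.81 ± 0.371 FPKM (SD, n = 3 each; 1.66 log2, limma adjusted p = 1.3e-05). With at most 0.312 FPKM in WT, it passed the filter of 1 FPKM only through CnATg libraries. Ddt, a small tautomerase related to the cytokine Mif, fell by 0.36 log2 (adjusted p = 0.010), a call lost once mitochondrial and hemoglobin genes were removed. The other 8, among them the Hermansky-Pudlak genes Hps1, Hps3, Hps4, Hps5 and Hps6, did not pass. The calls were fewer than the 39.2% of all features, and the median difference of the 10 was 0.03, against 0.07 for all features.

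Sprr1a belongs to the cornified envelope, and the rest of its family and most keratinocyte markers lay near 0. All 15 other Sprr genes were under 1 FPKM in every library, and 10 of them were listed at 0 in all 23. Of 14 keratinocyte markers 11 were under 1 FPKM in all libraries: Krt5 and Ivl were listed at 0 in every WT library, and Krt14 averaged 0.00831 FPKM in WT and 0.00920 FPKM in CnATg. The list summed to 2.63 to 3.35 FPKM in WT and 3.09 to 5.08 FPKM in CnATg, most of it from Krt10, Sfn and Trp63. Trp63, a transcription factor of squamous epithelia, averaged 0.300 FPKM in WT and 1.15 FPKM in CnATg. It could be tested at day 77, within JIB-04, where it was higher in CnATg by 0.58 log2 (limma, adjusted p = 0.0031). It reached 0.509 FPKM at most in WT and so passed the filter of 1 FPKM only through the libraries in which it was high. The part of these markers in the level of Sprr1a was not tested.

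In the heart Sprr1a is known to respond to cytokines that signal through gp130, the product of Il6st. Of 18 genes of that pathway 13 could be tested, and 4 rose and 2 fell with vehicle at day 45, where 23.3% of all features were called higher and 15.9% lower. Il6st itself went from 34.8 ± 3.21 to 56.6 ± 3.52 FPKM (SD, n = 3 each; 0.69 log2, adjusted p = 2.7e-05), and Stat3, its transcription factor, rose by 0.49 log2 (adjusted p = 3.0e-04). Osmr, the oncostatin M receptor, rose by 0.46 and Il11ra1, the interleukin 11 receptor, by 0.33. The kinase gene Pim1, a Stat3 target, fell by 0.98 log2 (adjusted p = 0.0012) and the cytokine gene Ctf1 by 0.37 log2 (adjusted p = 0.0019). The ligands Il6, Il11, Lif and Osm were under 1 FPKM in all libraries, and Socs3, the feedback inhibitor, differed by 0.75 log2 without passing (adjusted p = 0.066). The median of the 13 was -0.09. With median-ratio scaling the counts became 4 higher and 5 lower, and with quantile normalization 3 and 6. In the day-77 libraries with JIB-04, where 42.1% of 13212 features passed (19.9% higher, 22.1% lower), 3 of the 13 rose and 6 fell.

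Sprr1a is also one of the genes that injured neurons induce. Of 11 such genes 4 could be tested, and 3 rose with vehicle at day 45, against 23.3% of all features called higher. The neurotrophin gene Bdnf rose from 1.80 ± 0.427 to 9.83 ± 1.03 FPKM (SD, n = 3 each; 1.96 log2, adjusted p = 4.3e-06). The stress factors Atf3 and Jun rose by 1.67 and 0.68 log2, and Gadd45a fell by 1.43 log2 (adjusted p = 3.9e-06). The other 7, Gap43, Sox11, Npy and Gal among them, were under 1 FPKM throughout. At day 77 the counts were again 3 higher and 1 lower, against 19.9% and 22.1% of all features. Markers of neurons were scarce: 8 genes of that list were under 1 FPKM, and the summed level, nearly all from Uchl1, ran from 10.2 to 12.6 FPKM in WT and 4.65 to 12.8 FPKM in CnATg. Uchl1 was lower in CnATg by -0.45 log2 (limma, adjusted p = 0.041), a call lost under 7 of 16 alternatives, which include leaving out the first or second WT library or any CnATg library.

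**Figure D5:**
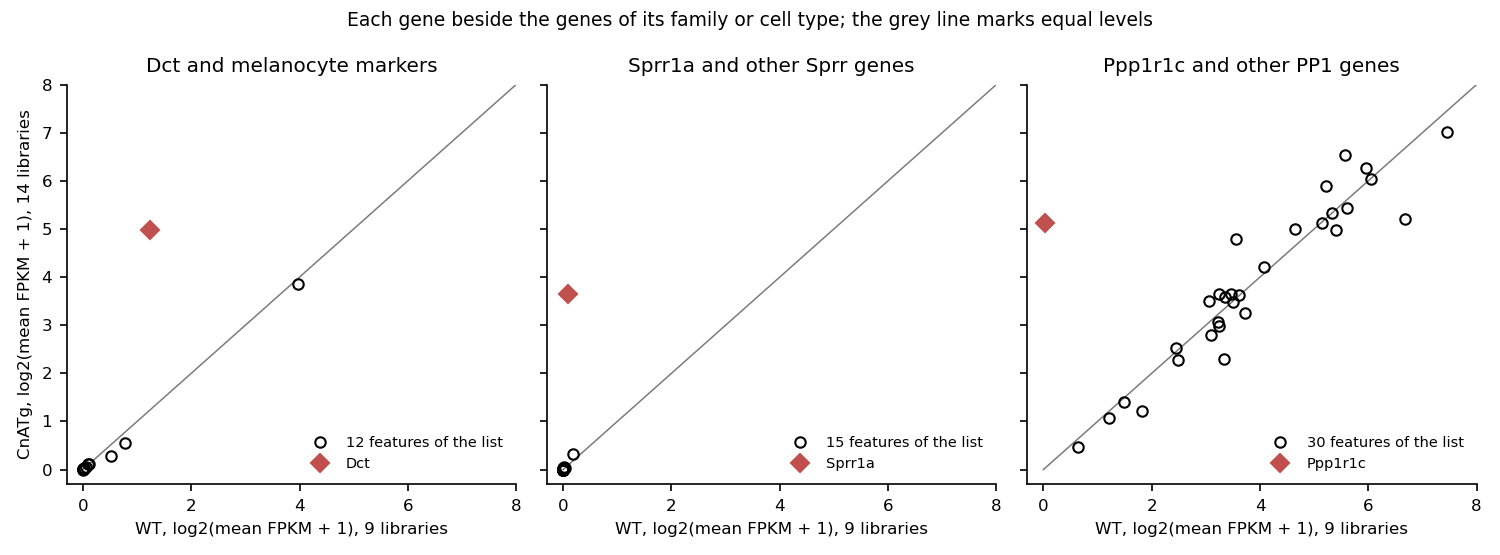
Dct, Sprr1a and Ppp1r1c (red diamonds) beside melanocyte markers, other Sprr genes and PP1 genes (open circles), as log2(mean FPKM + 1) in 9 WT libraries (horizontal) and 14 CnATg libraries (vertical); the 12 melanocyte features stand for 11 genes, since Slc45a2 has 2. The grey line marks equal levels: most circles lie on or near it and the 3 diamonds far above it. Some PP1 genes lie off it, such as Ppp1r14c (101 FPKM in WT, 35.9 in CnATg) below and Ppp1r15a (10.8 and 26.5 FPKM) above.

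Ppp1r1c is a regulator of PP1, an enzyme that opposes kinases at phospholamban and other calcium-handling proteins. Of 30 other PP1 genes, all are in the files and 29 could be tested with vehicle at day 45, where 7 rose, 6 fell and the median difference was 0.03, shares close to the 23.3% of all features called higher and the 15.9% called lower. Its closest relatives did not share its pattern. Ppp1r1a, inhibitor-1, averaged 1.31 FPKM in WT and 1.10 FPKM in CnATg (0.14 log2 with vehicle at day 45, limma adjusted p = 0.48), and Ppp1r1b averaged 0.554 and 0.391 FPKM and fell under the filter. Of the catalytic subunits Ppp1ca fell from 173 ± 9.19 to 134 ± 4.23 FPKM (SD, n = 3 each; adjusted p = 3.3e-04) and Ppp1cb rose from 62.3 ± 3.06 to 77.7 ± 3.75 FPKM (adjusted p = 8.8e-04).

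The PP1 genes that rose most were Ppp1r15a, which directs PP1 to the translation factor eIF2α and rose by 1.23 log2, Ppp1r12b, a myosin phosphatase subunit, by 0.97, and Ppp1r3c, a glycogen-targeting subunit, by 0.59. Those that fell most were the inhibitor gene Ppp1r14c, from 106 ± 8.98 to 42.3 ± 2.12 FPKM (SD, n = 3 each; adjusted p = 1.2e-07), the glycogen-targeting Ppp1r3b, which fell by 1.20 log2, and Ppp1r16b, which fell by 0.70 log2. Both Ppp1r14c and Ppp1r1c encode PP1 inhibitors: with vehicle at day 45 their mean FPKM was 106 and 0.0145 in WT and 42.3 and 37.9 in CnATg. At day 77, within JIB-04, 6 of the 29 rose and 11 fell, with a median of -0.08, against 19.9% and 22.1% of all features.

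No gene related to Igsf23 that was tested differed by as much as 1 log2 with vehicle at day 45. Of 18 genes of the Igsf and Ceacam groups 10 were under 1 FPKM in all libraries and 5 could be tested with vehicle at day 45. Igsf3 rose from 2.7 ± 0.361 to 5.05 ± 0.308 FPKM (SD, n = 3 each; 0.71 log2, adjusted p = 5.7e-05) and Igsf10 by 0.44 log2 (adjusted p = 0.017), a call lost without the first or the third WT vehicle library. Igsf10, at 0.781 FPKM or less in WT, passed the filter only through CnATg libraries. Ceacam1, an adhesion receptor of vessels and epithelia, fell by 0.74 log2 (adjusted p = 1.7e-04). The median of the 5 was 0.23. Of 8 markers of osteoclasts, in which Igsf23 has been studied, 6 were under 1 FPKM throughout, Dcstamp, Ocstamp and Calcr among them. Only the protease gene Ctsk, also made by fibroblasts, could be tested, and it rose from 4.95 ± 0.858 to 13.1 ± 0.359 FPKM (1.26 log2, adjusted p = 2.7e-06). The list summed to 4.11 to 6.4 FPKM in WT and 9.89 to 15.5 FPKM in CnATg, most of it from Ctsk. Without Ctsk the sums were 0.678 to 1.59 FPKM in WT and 0.976 to 1.98 FPKM in CnATg, and overlapped. The part of these markers in the level of Igsf23 was not tested.

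Markers of fibroblasts, endothelial cells and heart muscle cells moved with genotype. With vehicle at day 45, 23.3% of all features were called higher and 15.9% lower. The counts for macrophage and Schwann cell markers were close to those shares. The part of all these markers in the levels of the 4 genes was not tested. Of 10 fibroblast markers 9 rose and 1 fell with vehicle at day 45, with sums of 338 to 470 FPKM over WT and 480 to 783 FPKM over CnATg libraries. All 10 endothelial markers fell, with sums of 350 to 437 and 178 to 286 FPKM. Of 8 cardiomyocyte markers Actn2 rose and 5 fell, among them the contractile genes Myh6 and Tnni3, with sums of 17017 to 19881 and 13292 to 15418 FPKM. With quantile normalization 1 cardiomyocyte marker rose and 1 fell, and without mitochondrial and hemoglobin genes 1 rose and 2 fell. Of 9 macrophage markers in the files 2 rose and 1 fell, with sums of 183 to 314 and 167 to 324 FPKM, and the rise of Cd68 was lost under 12 of 16 alternatives (any WT or the first or the third CnATg library left out, among others) and that of Lyz2 under 5 (the second or the third WT or the first CnATg library left out, among others). Of 10 Schwann cell markers, which include the pigment lineage factor Sox10, 6 could be tested: Pmp22 rose by 0.55 log2 and Mal fell by 1.5 log2. With vehicle at day 45 Mal averaged 3.43 FPKM in WT and 0.566 FPKM in CnATg. Of these 2 groups only WT reached the filter of 1 FPKM for Mal. In these hearts the markers of heart muscle were by far the most abundant.

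Of 19 genes for inhibitors, other subunits and anchors of calcineurin, NFAT factors and their partners, 17 could be tested with vehicle at day 45. Of these 5 rose and 5 fell, against 23.3% of all features called higher and 15.9% lower. After median-ratio scaling 3 rose and 6 fell. Rcan1 rose by 1.6 log2 (limma, adjusted p = 1.1e-06), Rcan2 by 0.77 and Gata4 by 0.61. Akap5, which anchors calcineurin and passed the filter only through WT libraries, fell by 0.83 log2, Mef2a by 0.52 log2 and Nfatc2 by 0.46 log2. Of 12 genes of the fetal or hypertrophic programme 10 rose and none fell, of which Tnni1 passed the filter only through CnATg libraries. Tpm2, a tropomyosin, rose from 12.1 ± 0.445 to 778 ± 19.5 FPKM (SD, n = 3 each), Myh7, the slow myosin heavy chain, from 82.5 ± 12 to 1659 ± 25.1 FPKM, and Nmrk2, a nicotinamide riboside kinase, from 2.48 ± 0.492 to 31.1 ± 0.815 FPKM, with adjusted p-values of 1.1e-14, 2.0e-10 and 1.5e-08. The test of JIB-04 in CnATg hearts at day 77, with 0% of all features called, tells nothing of the lists.

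The choice of the 4 genes can be set against the values that bounded it. Read as a mean of at most 1.5 FPKM over the 9 WT libraries and above 15 FPKM in CnATg with vehicle at day 45, the rule held for 16 features, 13 of them named genes. Besides the 4, these were Cilp, Fstl4, Fzd9, Edn3, Timp1, Dkk2, Ror2, Ostn and Leprel1. Sprr1a, at 17 FPKM, was close to the lower bound, beside Cilp at 15.7, Fstl4 at 16.2 and Fzd9 at 17.1 FPKM, and just outside it were Sln at 12.6, Nlrc3 at 11.7, Spp1 at 11.4 and Shisa3 at 11.1 FPKM. Dct, with a WT mean of 1.36 FPKM, was close to the upper bound, beside Timp1 at 1.49 FPKM. Just outside that bound were Ptgfr at 1.53, Lrrc52 at 1.69, Cnksr1 at 1.82, Serpina3n at 1.95 and Lgals3 at 2.09 FPKM.

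The genes closest to each in profile were found by the root-mean-square difference of log2(FPKM + 1) over the 23 libraries, a measure of level and genotype difference together. Igsf23 was nearest to Leprel1 (0.36), a collagen prolyl hydroxylase gene, then to Ppp1r1c (0.94) and Dct (0.95). Ppp1r1c was nearest to Ostn (0.26), which encodes the secreted peptide osteocrin, then to the Wnt antagonist Dkk2 (0.38) and the Wnt receptor Ror2 (0.51). Dct was nearest to the natriuretic peptide clearance receptor Npr3 (0.45), the prostaglandin receptor Ptgfr (0.45) and Lrrc52 (0.45). Sprr1a had only more distant matches, in Syndig1 (0.65), Shisa3 (0.68) and the activin antagonist Fst (0.72). The closest pairs had CnATg means of 34.1 and 34.3 FPKM for Ppp1r1c and Ostn and of 67.7 and 54.9 FPKM for Igsf23 and Leprel1. Ostn, Dkk2, Ror2 and Leprel1 also met the rule by which the 4 genes were chosen.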

How the data were processed

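Whole-heart RNA was extracted with Trizol and made into libraries with a kit that does not keep strand, per the labels' protocols. The submitters' processing notes name the GRCm38 genome, Cufflinks 2.2.1, STAR 2.7.1a, GATK 4.1.2 and Picard; the annotation, the filters and what each step did are not given in the sources used here. What the authors deposited is, per the file headers, log2 FPKM for each feature. They hold no negative value and exact zeros, so they were read as log2(FPKM + 1) and used as such (the written design had assumed plain FPKM), and FPKM was computed back from them. In 6 files a blank line was dropped, and 3 mitochondrial features listed at 0 in some libraries and near the top in others were left out as failed estimates. No 2 libraries held identical values.

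Groups were compared with limma 3.58.1 in R 4.3.3 (model by group, empirical Bayes with intensity trend, two-sided, Benjamini-Hochberg adjustment over every feature that reached 1 FPKM in 3 or more of the fitted libraries; threshold, adjusted p under 0.05), in fits of all 12 day-45, all 11 day-77 or, between ages, all 23 libraries. All 4 genes passed that filter through the CnATg libraries. Each fit shared the spread of a gene across all its groups, WT included. Within-group relations used 100000 permutations. The scripts were tested on simulated data. Read counts are unknown, so precision rests on the spread between libraries. Names were given to the 4 genes, Ppp3ca and Rcan1, features within 100 kb, in each list the 3 strongest rises and falls past the threshold and defining markers at or near 0, up to 3 genes closest in profile, and genes at the edges of the rule; other named list members are examples picked with their values known. The 4 genes and the 17 lists were chosen with earlier results of these data known. Some list members are not reported here and were left out of the list counts.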

Additional observations from a re-analysis of the deposited data

Results flagged for a closer look

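In CnATg hearts with vehicle at day 77, Ppp1r1c was set apart in 1 library. The first of the 4 libraries held 25.1 FPKM, against 36.6 to 37.3 FPKM in the other 3, a gap of 0.94 of the whole range. That same library held the highest Sprr1a (26.2 FPKM), Igsf23 (86.4 FPKM) and Dct (35.7 FPKM) values of its group. Of 8 sets of 4 libraries looked at (4 genes in 2 groups), this was the 1 that stood apart, and chance sets apart about 1 in 20.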

How the results depend on the processing

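The 4 genes failed the threshold for JIB-04 at day 77 and for age under JIB-04 in every alternative run. Values near 0 changed sign: for JIB-04 at day 77, Ppp1r1c was 0.0194 with median-ratio scaling, 0.00454 with quantile normalization and 0.0331 without mitochondrial and hemoglobin genes, and Dct 0.0281, 0.0144 and 0.0414. Leaving out 1 library at a time gave -0.270 to -0.108 for Igsf23, -0.158 to 0.0795 for Ppp1r1c, -0.118 to 0.0769 for Dct and -0.644 to 0.0866 for Sprr1a (the highest without the first vehicle library), and, for age, -0.132 to 0.0185 for Igsf23, -0.00625 to 0.247 for Ppp1r1c, -0.244 to -0.108 for Dct and -0.335 to 0.563 for Sprr1a. With a sex term the age value of Sprr1a was -0.00226. In the 2 tested comparisons the replicate numbers did not pair the libraries: no same-numbered pair correlated above 0.1 (-0.12 to 0.07 at day 77). For JIB-04 in WT at day 45, all 3 libraries matched best with their own number (r from 0.05 to 0.24). For JIB-04 in CnATg at day 45, 1 same-numbered pair exceeded 0.1 (r = 0.17). The intervals given for these day-45 contrasts are unpaired. With the replicate block 0 features were called for JIB-04 at day 77 and 5 for age, where Igsf23 became 0.00746. Features called for JIB-04 at day 77 numbered 3 without a low-value filter. Those called for age numbered 1 at a pseudocount of 0.1 FPKM or a minimum of 5 FPKM, 3 with median-ratio scaling or a sex term, 0 without mitochondrial and hemoglobin genes, 10 without the trend, 2 with only the compared groups, and 0 to 9 leaving out 1 library. At a pseudocount of 0.1 FPKM the genotype differences of Igsf23, Ppp1r1c, Dct and Sprr1a were 6.77, 8.38, 4.57 and 6.83 with vehicle at day 45, 6.33, 7.90, 4.97 and 5.77 with JIB-04 at day 45, and 5.91, 8.10, 3.91 and 5.66 with JIB-04 at day 77. Ssfa2, at day 77, was -0.0235 with a sex term. The relation of Igsf23 with Ppp1r1c was r = -0.0102 after median-ratio scaling. Leaving out 1 library moved r from -0.27 to 0.50 for Igsf23 with Ppp1r1c, -0.000395 to 0.423 for Igsf23 with Dct, -0.24 to 0.28 for Ppp3ca with Sprr1a, and, for Rcan1, -0.38 to 0.12 with Igsf23, -0.200 to 0.0909 with Ppp1r1c, -0.230 to 0.0761 with Dct and -0.15 to 0.25 with Sprr1a. Relations with Nppb, added after seeing the data, had an adjusted permutation p of 0.81 each. With 3 or 4 libraries a group and unknown read counts, small differences were not detectable.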
